A study of Mus musculus with 24 samples.

Results

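The effect of RGFP109 on wild type striatum was read from 13771 genes, those with at least 1 FPKM in WT-vehicle or WT-RGFP109 mice, of the 24341 genes in the deposited tables. FPKM scales the fragments of a transcript to its length and to the size of the library, so levels can be compared between genes. WT-vehicle held 5 male wild type littermates of the R6/1 line on a C57BL/6J background, injected with DMSO diluted in saline, and WT-RGFP109 held 6 such mice that received RGFP109, an inhibitor of HDAC1 and HDAC3, at 30 mg/kg intraperitoneally 5 times per week for 3 weeks. Treatment began at an age of 11 to 14 weeks and ended at 14 to 17 weeks, and the striatum of a single hemisphere was taken 18 h after the last injection. For comparison, R6/1-vehicle held 6 and R6/1-RGFP109 held 7 mice that carry exon 1 of human HTT with an expanded CAG repeat and were treated in the same way, out of 24 mice in all. The R6/1 model expresses this fragment beside both mouse Htt alleles.

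The deposited tables give 1 value per group, which the authors computed over all mice of that group. The spread between mice is therefore not known from these values, no difference below was tested, and it cannot be told whether a group value rests on all mice or on a single one. A gene is called higher or lower here when log2 of the ratio of WT-RGFP109 to WT-vehicle, after adding 0.05 FPKM to both, lay above 0.5 or below -0.5. In whole tissue, fewer cells of a type and less RNA per cell cannot be told apart.

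Histone deacetylases remove acetyl groups from histone tails and from other proteins, and HDAC1, HDAC2 and HDAC3 work in the nucleus as parts of corepressor complexes such as Sin3, NuRD, CoREST and NCoR. Inhibitors raise acetylation and change transcription in both directions. The striatum consists mostly of GABAergic projection neurons of the direct pathway, which express Drd1, Tac1 and Pdyn, and of the indirect pathway, which express Drd2, Adora2a and Penk. It borders the lateral ventricle, whose wall is lined by ciliated ependymal cells and which contains the choroid plexus, the epithelium that makes cerebrospinal fluid.

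Across all genes of the comparison, 253 were higher in WT-RGFP109 (1.84%) and 328 were lower (2.38%). Small RNA genes held a large share of both counts. Among the 434 genes of small RNAs, of which 334 were microRNA and 86 were small nucleolar RNA genes, 173 were higher and 145 were lower, together 73.3%. In 160 of them the value was listed at 0 in 1 wild type group. The 12 highest and the 12 lowest ratios of the whole comparison all belonged to this class and all had a 0 on 1 side, from Mir5119, listed at 216 FPKM in WT-vehicle and at 0 in WT-RGFP109, to Mir7651, listed at 0 and at 114 FPKM. The 12 lowest further included Snord38a, Mir6936, Mir7213, Mir5112, Snord34 and Mir134, and the 12 highest Mir377, Snora20, Mir7067, Scarna2, Mir128-1 and Mir125a. With vehicle, Mir5119 in R6/1 mice was listed at 0, and with RGFP109 at 49.1 FPKM. Mir7651 was at 65.2 FPKM with vehicle and listed at 0 with RGFP109. These 2 genes thus had opposite directions in the genotypes, while others had the same: Gm25500 was listed at 0 with RGFP109 in both (70.2 FPKM with vehicle in wild type and 139 FPKM in R6/1 mice), and Scarna2 was listed at 0 with vehicle in both (73.7 and 59.7 FPKM with RGFP109). Of the 253 higher genes 42 were also higher by more than the fold in R6/1 mice and 43 were lower. Among all 13771 genes 171 were higher and 194 were lower in R6/1 mice. The FPKM of such a short transcript divides by a very small length, and no fold is given for a gene listed at 0.

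The remaining 13337 genes, nearly all protein-coding or long noncoding, were used for everything that follows. Of these, 80 were higher in WT-RGFP109 (0.600%) and 183 were lower (1.37%). The median log2 ratio was -0.003 with an SD of 0.21 across genes, and 91.4% of the genes lay within 0.25 of 0. In R6/1 mice, over the same 13337 genes, 55 were higher with RGFP109 (0.412%) and 96 were lower (0.720%), with an SD of 0.17.

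Most genes past the fold were weakly expressed. In the bin of 1 to 2 FPKM (mean of the 2 groups) 8.40% of 1310 genes were past the fold, against 0.764% of 5237 genes at 5 to 20 FPKM and 0.110% of 3627 genes at 20 to 100 FPKM. The SD of the log2 ratio ranged from 0.34 at 1 to 2 FPKM to 0.09 at 20 to 100 FPKM. Of the genes with a mean of at least 20 FPKM, those past the fold were Ttr, Enpp2, Igfbp2, Opalin and Coch, which were lower, and Fabp7, which was higher. Coch was at 30.3 and 21.2 FPKM and was named after its values were seen. Near the threshold, Nrp2 (log2 ratio 0.50, 5.25 and 7.45 FPKM) was counted as higher, while Calb2 (0.49, 20.7 and 29.1 FPKM) was not. Among the lower genes Efna1 (-0.51) was counted and Ppp1r14a (-0.50, 66.4 and 47.0 FPKM) was just within the fold.

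**Figure D1:**
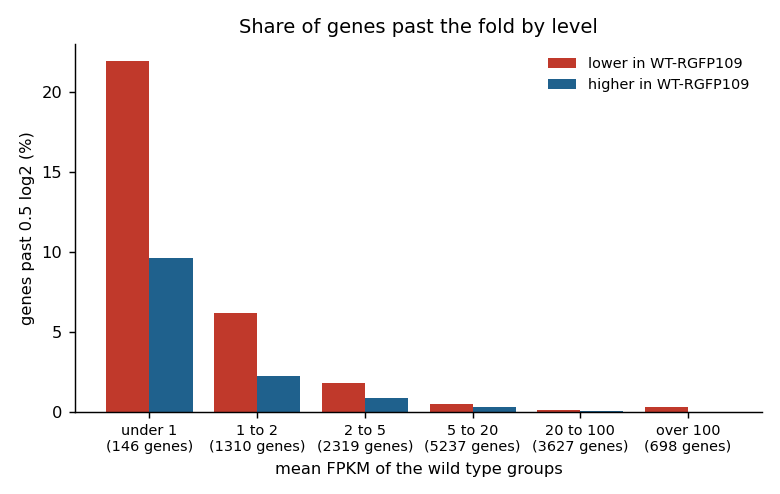
Share of the 13337 genes past 0.5 on the log2 scale (y axis, %) by mean FPKM of the wild type groups (x axis), with lower genes in red and higher genes in blue. The share, in both directions together, is 31.5% of 146 genes under 1 FPKM, 0.110% at 20 to 100 FPKM and 0.287% over 100 FPKM. Genes with a mean under 1 FPKM were kept only where 1 group reached 1 FPKM and the other did not. The filter itself thus favours a difference in that bin.

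The drug targets lay within the fold. Hdac3 was at 56.5 FPKM in WT-vehicle and 57.4 FPKM in WT-RGFP109 (log2 ratio 0.02), and Hdac2 was at 52.2 and 53.1 FPKM (0.02). Hdac1, on chromosome 4 from 129516104 to 129542646 of mm10, was at the low level of 3.39 and 2.97 FPKM (-0.19). Hdac8, the remaining class I enzyme, was at 7.93 and 8.25 FPKM. None of 27 measured corepressor partners passed the fold, with log2 ratios from -0.13 for the lowest to 0.12 for the highest. Chd3 of the NuRD complex was at 113 and 111 FPKM, Mbd3 at 83.1 and 78.2 FPKM and Sin3b at 55.8 and 51.8 FPKM. The 14 other deacetylases and sirtuins (Hdac11 at 121 and 119 FPKM, Sirt2 at 125 and 112 FPKM), the 23 acetyltransferases and acetyl-lysine readers (Brd2 at 59.4 and 55.8 FPKM, Kat5 at 33.5 and 33.4 FPKM) and the 21 polycomb genes (Cbx6 at 101 and 98.4 FPKM) held no gene past the fold either. Of 19 histone genes 15 had a ratio below 0 (51.2% of all genes had one), with a median log2 of -0.10. Of the 19 genes 1 was lower by more than the fold, where 1.37% of all genes were. This was Hist1h4i, a histone H4 gene of the replication-dependent cluster, at 2.11 FPKM in WT-vehicle and 1.33 FPKM in WT-RGFP109. It was also lower in R6/1 mice, at 4.77 and 2.67 FPKM.

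The defining genes of striatal projection neurons were high in both groups, as a check of the labelled tissue. Of 10 such markers the lowest, Foxp1, was at 27.7 FPKM in WT-vehicle and 26.4 FPKM in WT-RGFP109. Ppp1r1b, which encodes the dopamine- and cAMP-regulated phosphoprotein DARPP-32, was at 1109 and 1004 FPKM (log2 ratio -0.14). Scn4b, a sodium channel beta subunit, was at 315 and 278 FPKM, and Pde1b, a phosphodiesterase, at 422 and 407 FPKM. None of the 30 measured genes of this class passed the fold. Their median log2 was -0.07, and the range ran from -0.30 to 0.30.

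Pathway markers differed little in either direction. On the side of the indirect pathway, Penk, the precursor of enkephalin, was at 1076 and 1074 FPKM (log2 ratio -0.003), Adora2a, the adenosine A2a receptor, at 128 and 114 FPKM (-0.16), and Drd2 at 94.2 and 83.8 FPKM (-0.17). On the side of the direct pathway, Drd1, on chromosome 13 from 54051183 to 54055658, was at 54.9 and 58.2 FPKM (0.08), Tac1, the precursor of substance P, at 207 and 237 FPKM (0.20), and Pdyn, the precursor of dynorphin, at 54.1 and 64.7 FPKM (0.26). The 3 direct pathway genes had ratios above 0 and the 3 indirect pathway genes ratios below 0, all within the fold. Of these, Penk lay at the median of all genes (-0.003), and a difference between the pathways was not tested. In R6/1 mice all 6 had ratios below 0, from -0.25 for Drd2 to -0.12 for Adora2a and Pdyn.

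Signaling genes downstream of these receptors stayed within the fold as well, with none past it among 15 phosphodiesterases (Pde10a at 134 and 134 FPKM, Pde2a at 223 and 216 FPKM), 23 adenylyl cyclase and protein kinase A genes (Arpp21 at 366 and 374 FPKM), 17 regulators of G protein signaling (Rgs9 at 204 and 182 FPKM, Rgs4 at 229 and 211 FPKM), 10 adenosine signaling genes (Adora1 at 54.5 and 52.6 FPKM) and 8 endocannabinoid genes (Cnr1, the cannabinoid receptor, at 42.3 and 35.6 FPKM). Of 10 genes of dopamine receptors and dopamine handling 2 were higher, where 0.600% of all genes were. Drd3, a D2-type dopamine receptor of the ventral striatum and the islands of Calleja, was at 0.760 and 1.67 FPKM (log2 ratio 1.09), and Th, the rate-limiting enzyme of dopamine synthesis, was at 4.29 and 8.84 FPKM (1.03), a 2.06-fold higher level. Drd3 was kept only through WT-RGFP109, so its ratio had to lie above 0. Neither of these 2 genes was higher in R6/1 mice with RGFP109, with Drd3 at 1.69 and 1.41 FPKM and Th at 4.51 and 3.88 FPKM.

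Of the gene lists used, choroid plexus genes held the most lower genes. On no list were 113 of the 183 lower genes and 62 of the 80 higher genes. Of 39 listed choroid plexus genes 36 were measured at 1 FPKM or more, all 36 had a ratio below 0 and 32 were lower by more than the fold, where 1.37% of all genes were. Genes of this list below 1 FPKM in WT-RGFP109, such as F5, Cldn2 and Otx2, were kept only through WT-vehicle. Their ratio thus had to lie below 0. The median log2 of the 36 genes was -1.34, against -0.003 over all genes. It was -1.03 with at least 1 FPKM in both groups. Their summed level was 1846 FPKM in WT-vehicle and 518 FPKM in WT-RGFP109. Ttr, transthyretin, the carrier of thyroxine and retinol that the choroid plexus secretes, made up most of this sum. It was at 1395 FPKM in WT-vehicle and 295 FPKM in WT-RGFP109, a 4.72-fold lower level (log2 ratio -2.24). Enpp2, which encodes autotaxin and is also expressed in oligodendrocytes, was at 227 and 98.3 FPKM (-1.21).

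The largest ratios of the list were about as large as that of Ttr. Folr1, the folate receptor, on chromosome 7 from 101858331 to 101870788, was at 9.47 and 2.03 FPKM, 4.66-fold lower. Kcnj13, an inward rectifier potassium channel, was at 8.93 and 1.99 FPKM, 4.49-fold lower, and Kcne2, a potassium channel subunit, at 3.49 and 0.873 FPKM, 3.99-fold lower. Cldn2, a tight junction claudin, was at 2.35 and 0.508 FPKM, 4.62-fold lower. F5, coagulation factor V, Wfdc2 and Slc4a5, a sodium bicarbonate cotransporter, had log2 ratios of -2.14, -2.06 and -2.06. Kl, klotho, on chromosome 5 from 150952607 to 150993817, was at 8.09 and 2.45 FPKM, 3.30-fold lower, and Otx2, a homeobox factor of choroid plexus development, at 2.55 and 0.773 FPKM, 3.29-fold lower. Smaller ratios were found for other genes of the list, such as Clic6 (9.57 and 6.67 FPKM, log2 ratio -0.52), Abca4 (1.86 and 1.05 FPKM, -0.79), Slc13a4, a sulfate transporter (3.45 and 1.62 FPKM, -1.07), Igfbp2 (26.9 and 17.6 FPKM, -0.61), Car12, a carbonic anhydrase (21.5 and 15.0 FPKM, -0.51), Slc4a2 (17.5 and 12.3 FPKM, -0.51) and Ace, the angiotensin-converting enzyme (11.5 and 5.59 FPKM, -1.04). The 4 genes of the list that did not pass the fold were Spint2, Cab39l, Mdfic and Sulf1, with ratios from -0.45 for Spint2 to -0.16 for Sulf1.

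Several lower genes outside the list were similar in size. 1500015O10Rik, which encodes the secreted peptide augurin, was at 17.5 and 4.16 FPKM (log2 ratio -2.06), Prr32 at 3.33 and 0.644 FPKM (-2.28) and Frmpd1os at 1.05 and 0.198 FPKM (-2.15). Defb9, a defensin gene, was at 1.27 FPKM in WT-vehicle and listed at 0 in WT-RGFP109, and Krt2, a keratin gene, was at 1.07 and 0.0640 FPKM. Prr32 (1.74 and 0.219 FPKM) and 1500015O10Rik (9.41 and 2.51 FPKM) were also lower in R6/1 mice, while Krt2 was near 0 in both R6/1 groups (0.0386 and 0.0405 FPKM). Over all genes 1.37% were lower, the share to set beside the counts that follow. Of 19 retinoid genes 3 were lower, namely Ttr, the retinol dehydrogenase gene Rdh5 (6.28 and 2.87 FPKM) and the retinol uptake receptor gene Stra6 (2.21 and 1.04 FPKM). Of 12 genes of the insulin-like growth factor system 2 were lower, Igf2, a growth factor made by choroid plexus and meninges (18.2 and 8.81 FPKM), and Igfbp2. Of 82 subunit genes of oxidative phosphorylation 2 were lower, Cox8b (7.34 and 2.68 FPKM) and Cox6b2 (6.92 and 4.67 FPKM), while the median of that list was -0.01.

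**Figure D2:**
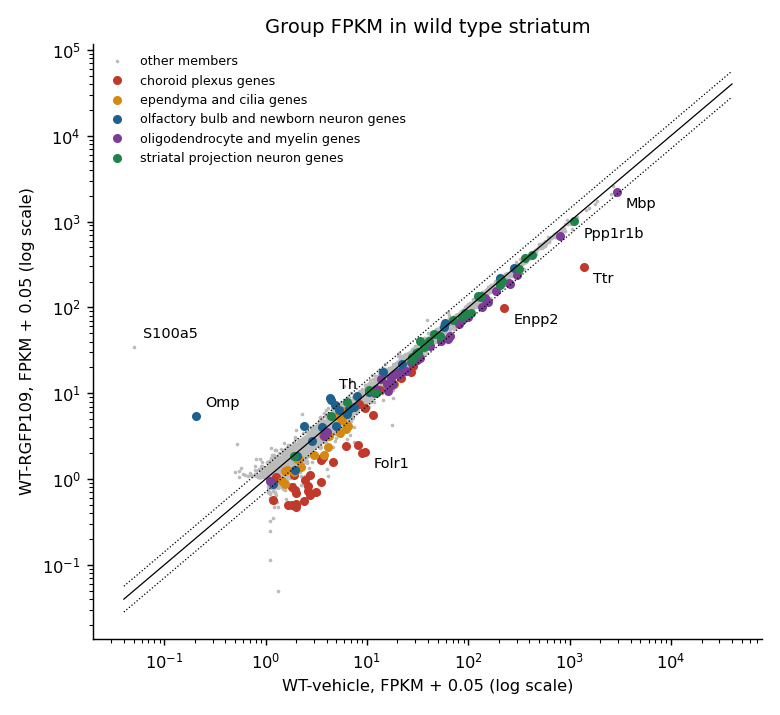
Group FPKM of the 13337 genes in WT-vehicle (x axis) and WT-RGFP109 (y axis), both plus 0.05 FPKM and on log scales, with the line of equal values and dotted lines at log2 ratios of 0.5 and -0.5. Choroid plexus genes (red) lie below the line, with Ttr at 1395 and 295 FPKM and Enpp2 at 227 and 98.3 FPKM, while striatal projection neuron genes (green) follow it and S100a5 and Omp lie far above it.

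The same choroid plexus genes were lower in R6/1 mice, whose libraries are separate from those of the wild type mice. In R6/1-RGFP109 against R6/1-vehicle 31 of the 36 genes were lower by more than the fold (0.720% of all genes), with a median log2 of -1.12, and their summed level was 921 FPKM with vehicle and 205 FPKM with RGFP109. Values of the R6/1 pair were scaled by the authors in a table of their own. Ttr was at 631 and 31.3 FPKM there (log2 ratio -4.33), Folr1 at 4.33 and 0.668 FPKM (-2.61), Kl at 4.82 and 1.27 FPKM (-1.89) and Enpp2 at 135 and 70.2 FPKM (-0.94). In order of level, the 4 groups ran for Ttr, Folr1, Kl, Kcnj13 and Enpp2 from WT-vehicle through R6/1-vehicle and WT-RGFP109 to R6/1-RGFP109. Car12, also on the list, broke this order, at 15.0 FPKM in WT-RGFP109 and 7.02 FPKM in R6/1-vehicle. Clic6 was at 9.57 FPKM in WT-vehicle and 9.63 FPKM in R6/1-vehicle. As the separate scaling can shift values by a factor of about 1.04, the order of these 2 Clic6 values is not settled. Across the 36 genes, the ratios of the genotypes had a Pearson r of 0.82, as a description of genes that share a tissue. Aqp1, a water channel of the choroid plexus epithelium, differed in size, with a log2 ratio of -1.03 in wild type mice (3.61 and 1.74 FPKM) and of -2.93 in R6/1 mice (1.33 and 0.130 FPKM).

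**Figure D3:**
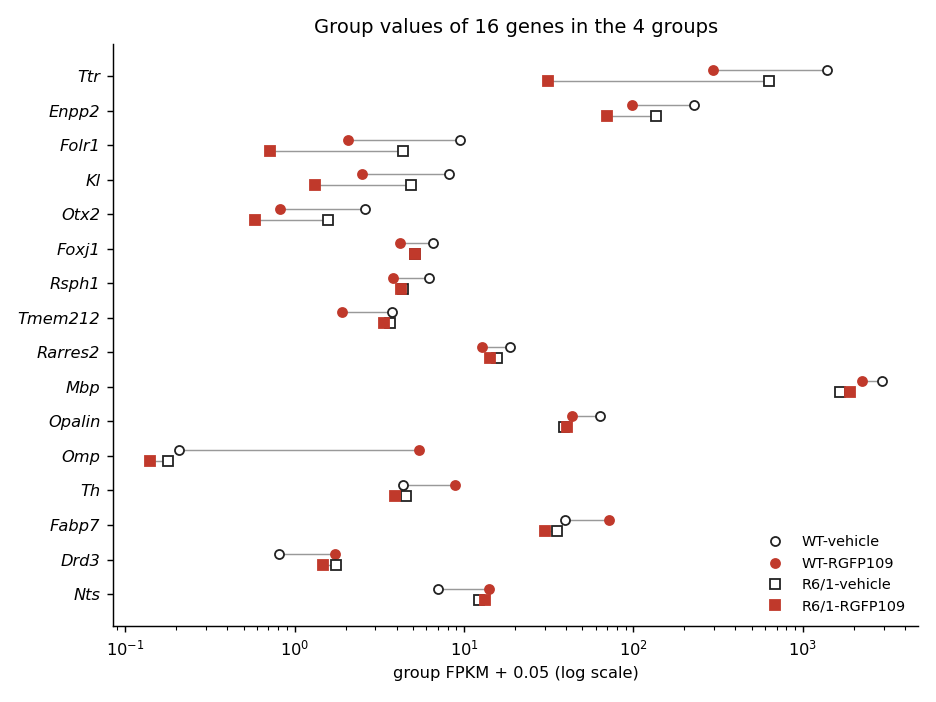
Group FPKM plus 0.05 (x axis, log scale) of 16 genes in WT-vehicle and WT-RGFP109 (circles, upper line of each gene) and in R6/1-vehicle and R6/1-RGFP109 (squares, lower line), open for vehicle and filled for RGFP109. Ttr, Enpp2, Folr1, Kl and Otx2 are lower with RGFP109 in both genotypes, while Foxj1 (6.52 and 4.14 FPKM in wild type, 5.07 and 5.09 FPKM in R6/1 mice), Omp and Th differ in wild type mice.

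Genes of ependymal cells and motile cilia were lower in wild type mice. Of 31 listed genes 21 were measured at 1 FPKM or more, 19 had a ratio below 0 and 12 were lower by more than the fold, with a median log2 of -0.60. Over all genes 51.2% had a ratio below 0 and 1.37% were lower by more than the fold. With at least 1 FPKM in both groups the median of the list was -0.54. The summed level was 87.8 FPKM in WT-vehicle and 64.0 FPKM in WT-RGFP109. Foxj1, the master regulator of motile ciliogenesis, on chromosome 11 from 116330704 to 116335354, was at 6.52 and 4.14 FPKM (log2 ratio -0.65). Rarres2, which encodes chemerin, was at 18.6 and 12.7 FPKM (-0.54), Rsph1, a radial spoke protein, at 6.19 and 3.76 FPKM (-0.71), Dynlrb2, a dynein light chain, at 5.34 and 3.43 FPKM (-0.63), Ccdc153 at 4.08 and 2.33 FPKM (-0.80) and Tmem212 at 3.73 and 1.87 FPKM (-0.98). Ccdc39 (5.73 and 6.22 FPKM) and 1110017D15Rik (log2 ratio 0.07) were the 2 genes with a ratio above 0.

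Of the 21 genes 19 also had a ratio below 0 in R6/1 mice, and 1 was lower by more than the fold (0.720% of all genes), Dnaic2 (1.87 and 1.25 FPKM). The median log2 was -0.05, and the summed level was 89.5 FPKM with vehicle and 83.9 FPKM with RGFP109. Rsph1 was at 4.34 and 4.21 FPKM there, and Foxj1, at 5.07 and 5.09 FPKM, was 1 of the 2 genes with a ratio above 0. The difference between the genotypes was not tested, as only 1 value per group was used.

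Promoters of these cilia genes were searched for 3 short motifs on both strands, in the 250 bases before each start in the RefSeq windows of GRCm38.p6. The letters GTTGCC, a core of the site of the RFX factors that act in ciliated cells, stood in 11 of the 22 windows of 17 ependyma and cilia genes with a window, which is 50.0% of the windows, against 10.4% of all 32851 windows. They stood in 6 of 41 windows of 30 choroid plexus genes (14.6%) and in 4 of 22 windows of 17 olfactory bulb genes (18.2%). The letters TAATCC, bound by OTX factors, stood in 7.32% of the choroid plexus windows, in 4.55% of the windows of each of the other 2 lists and in 6.25% of all windows. The palindromic EBF motif, named only, stood in none of the windows of the 3 lists and in 0.779% of all. The lists and motifs were chosen with these genes in view, windows of 1 gene can overlap, and a match is not a bound site. Of the 6 windows that hold GTTGCC or its reverse complement and belong to genes lower by more than the fold, 4 are shown as examples, with these letters in capitals, and those of Cfap44 (log2 ratio -0.62) and Pifo (-0.66) are not printed. They lie at chr9:44240427-44240676 on the plus strand for Ccdc153, at chr8:116504765-116505014 on the plus strand for Dynlrb2, at chr3:67373847-67374096 on the plus strand for Mlf1 and at chr11:72361883-72362132 on the minus strand for Tekt1, and each reads from 5′ to 3′ toward the start of the gene.
Ccdc153: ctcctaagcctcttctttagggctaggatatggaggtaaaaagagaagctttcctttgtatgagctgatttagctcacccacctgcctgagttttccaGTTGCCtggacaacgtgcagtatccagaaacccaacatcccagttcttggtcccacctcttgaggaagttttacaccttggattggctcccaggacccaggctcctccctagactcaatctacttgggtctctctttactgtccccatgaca
Dynlrb2: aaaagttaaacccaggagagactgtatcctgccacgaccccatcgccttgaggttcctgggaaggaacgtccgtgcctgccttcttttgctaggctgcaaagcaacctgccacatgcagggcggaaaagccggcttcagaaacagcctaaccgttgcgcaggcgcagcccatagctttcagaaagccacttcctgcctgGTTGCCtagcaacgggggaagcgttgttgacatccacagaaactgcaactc
Mlf1: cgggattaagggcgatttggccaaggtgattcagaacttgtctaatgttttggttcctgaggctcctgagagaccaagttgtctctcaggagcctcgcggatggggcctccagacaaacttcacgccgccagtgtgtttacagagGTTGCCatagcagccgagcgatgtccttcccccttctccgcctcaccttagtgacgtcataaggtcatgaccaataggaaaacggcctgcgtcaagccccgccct
Tekt1: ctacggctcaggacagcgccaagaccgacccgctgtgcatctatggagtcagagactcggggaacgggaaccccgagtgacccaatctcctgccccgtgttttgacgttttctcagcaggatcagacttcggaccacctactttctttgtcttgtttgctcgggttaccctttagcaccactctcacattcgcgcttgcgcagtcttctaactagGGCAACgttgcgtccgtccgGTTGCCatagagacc

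Mlf1 was at 1.91 FPKM in WT-vehicle and 1.24 FPKM in WT-RGFP109 (log2 ratio -0.60), and Tekt1, a tektin of the ciliary axoneme, at 2.18 and 1.33 FPKM (-0.70). The motif also stood before genes that did not pass the fold. These were Fam183b (-0.40), Dnaic2 (-0.35), Enkur (-0.27), Spag6 (-0.19) and 1110017D15Rik (0.07).

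Meninges and fibroblast genes were mixed. Over all genes 1.37% were lower and 0.600% were higher, the shares for the meninges, collagen and blood cell counts here. Of 20 measured meninges and fibroblast genes 4 were lower and none higher, with a median log2 of -0.16 in wild type and of -0.39 in R6/1 mice. Igf2 was at 18.2 and 8.81 FPKM, Dcn, the proteoglycan decorin, at 7.46 and 4.04 FPKM, Slc6a20a at 3.90 and 2.70 FPKM and Col1a1, a collagen I chain, at 1.02 and 0.651 FPKM. Of 27 collagen genes 4 were lower, Col8a1 and Col8a2, which are also on the choroid plexus list, Col6a4 (1.96 and 1.06 FPKM) and Col1a1, and 1 was higher, Col11a1 (4.06 and 6.63 FPKM). Of 6 measured blood cell genes the joint entry of the alpha globins Hba-a1 and Hba-a2 was lower (17.9 and 10.9 FPKM) and S100a8 was higher (0.898 and 1.30 FPKM). The separate entry of Hba-a2 was at 23.7 and 27.1 FPKM, and since the 2 copies are nearly identical the split of fragments between them is uncertain.

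Myelin genes were nearly all slightly below their WT-vehicle level. Of 34 measured oligodendrocyte genes 33 had a ratio below 0 (51.2% of all genes had one), with a median log2 of -0.33. By more than the fold 3 were lower, where 1.37% of all genes were. Among the 3 lower genes were Opalin, a myelin membrane protein (63.4 and 43.3 FPKM), and Nkx6-2, a homeobox factor of myelinating cells (18.1 and 12.7 FPKM). Mbp, myelin basic protein, chosen after its values were seen as the highest gene of the list, was at 2925 and 2234 FPKM (-0.39). Gpr17, a receptor of committed precursors that was likewise chosen afterwards, was the gene above 0 (13.6 and 14.5 FPKM). The summed level was 6087 FPKM in WT-vehicle and 4757 FPKM in WT-RGFP109. Of the 34 genes 9 in R6/1 mice had a ratio below 0 and none passed the fold, and the sum was 3878 FPKM with vehicle and 4278 FPKM with RGFP109. This difference between the genotypes was not tested either.

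The other cell classes of the striatum held few genes past the fold. None of 30 astrocyte genes passed it, with Apoe at 1874 and 1751 FPKM, Cst3 at 2647 and 2615 FPKM and a median log2 of -0.01. None of 28 microglia genes passed it, with C1qb at 78.3 and 75.8 FPKM and Ctss at 77.2 and 78.1 FPKM. Of 28 endothelial and pericyte genes 1 was lower (1.37% of all genes), Acta2, the smooth muscle actin (2.34 and 1.53 FPKM). None of 16 interneuron genes passed it, with Sst at 630 and 596 FPKM, Npy at 230 and 229 FPKM and Pvalb at 42.2 and 45.6 FPKM.

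**Figure D4:**
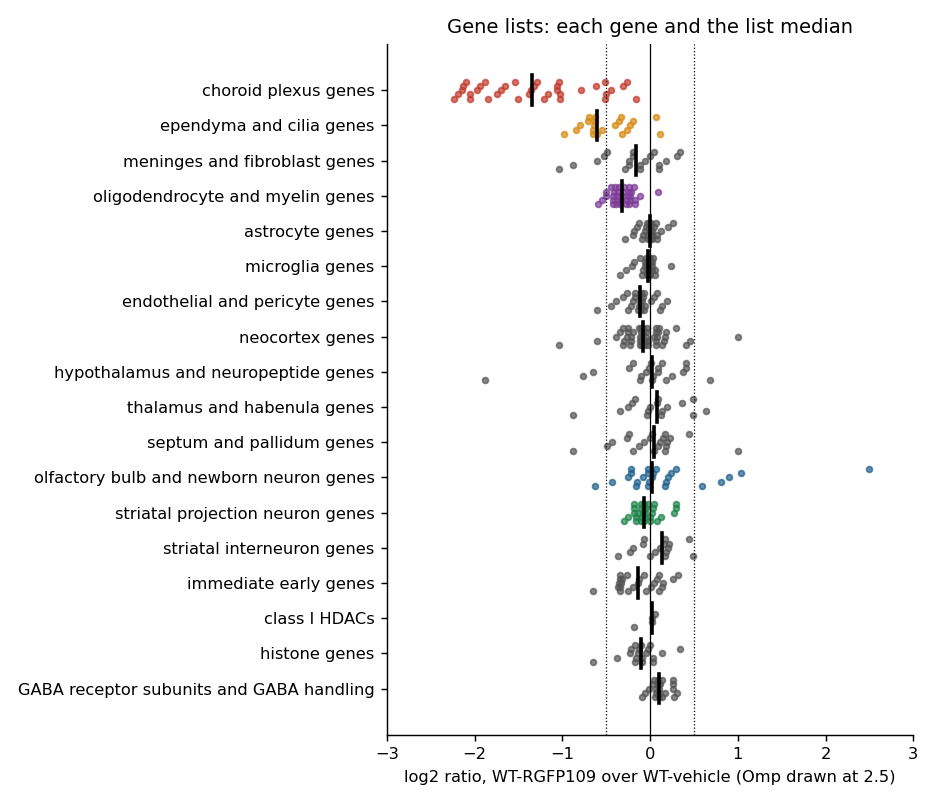
Log2 ratio of WT-RGFP109 over WT-vehicle (x axis) for each measured gene of 18 lists (points) with the list median (black bar) and dotted lines at 0.5 and -0.5. The medians of the choroid plexus (-1.34), ependyma (-0.60) and myelin (-0.33) lists lie furthest from 0, and the other lists shown have medians between -0.16 and 0.14.

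Among the higher genes, the largest ratios belonged to genes of the olfactory system. S100a5, a calcium-binding protein of olfactory sensory neurons, was listed at 0 in WT-vehicle and at 34.1 FPKM in WT-RGFP109, and at 0.116 and 0.268 FPKM in R6/1 mice. Omp, olfactory marker protein, was at 0.157 and 5.36 FPKM, 34.2-fold higher, and at 0.130 and 0.0892 FPKM in R6/1 mice. Stoml3, a stomatin of olfactory cilia and sensory neurons, was at 0.477 and 2.49 FPKM, 5.23-fold higher. Omp lies within the locus of Capn5, which was at 12.2 and 11.8 FPKM. The deposited tables do not show how many of the 6 WT-RGFP109 mice carried these transcripts.

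The list of olfactory bulb and newborn neuron genes held 25 measured genes of 31, of which 5 were higher, 1 was lower and 19 were within the fold, with a median log2 of 0.03. Over all genes 0.600% were higher and 1.37% were lower. The summed level of the list was 744 FPKM in WT-vehicle and 784 FPKM in WT-RGFP109. Beside Omp and Th, the higher genes were Doc2g (4.36 and 8.18 FPKM), Cdhr1, a cadherin of mitral and tufted cells (2.36 and 4.16 FPKM), and Nmb, neuromedin B (4.81 and 7.29 FPKM). The lower gene was Igfbpl1 (1.90 and 1.21 FPKM). None of the 25 genes passed the fold in R6/1 mice. The part of olfactory tissue in the ratios of Th and of other higher genes was not tested.

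Other higher genes at 10 FPKM or more were few. Fabp7, a fatty acid binding protein of radial glia, astrocytes and olfactory ensheathing cells, on chromosome 10 from 57784923 to 57788450, was at 39.5 and 71.8 FPKM (log2 ratio 0.86) and at 35.3 and 29.8 FPKM in R6/1 mice. Nts, neurotensin, on chromosome 10 from 102481756 to 102490418, was at 6.93 and 14.0 FPKM (1.01). Peg3os, an antisense transcript at the imprinted Peg3 locus, was at 5.95 FPKM in WT-vehicle with a log2 ratio of 1.01, and without knowledge of strand its fragments cannot be told from those of overlapping Peg3 transcripts. Otof, Rasgrf2 and Coro6 had log2 ratios of 0.54, 0.54 and 0.52, and Wfs1, at 62.6 and 87.4 FPKM (0.48), lay just within the fold. At lower levels, Tnnt1 (2.26 and 5.73 FPKM) and Tnni3 (1.07 and 2.27 FPKM), which encode troponins, and Stac, Msmp and Hcst, each below 2 FPKM in both groups, completed the 12 highest ratios with Drd3, Th, Peg3os and Nts.

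Immediate early genes, which neurons switch on with activity, included 1 gene past the fold, where 0.600% of all genes were higher and 1.37% lower. Npas4, an activity-dependent transcription factor, was at 16.5 and 10.5 FPKM (log2 ratio -0.66). The median over 25 genes was -0.14, and 16 of them had a ratio below 0, where 51.2% of all genes did. A ratio above 0 was found for 18 of the 25 in R6/1 mice, where 51.8% of all genes had one. Npas4 was at 5.62 and 6.27 FPKM in R6/1 mice. This difference between the genotypes was not tested. Among neuropeptides and hormones, Trh, thyrotropin-releasing hormone, on chromosome 6 from 92242061 to 92244650, was at 14.2 and 8.38 FPKM (-0.76) in wild type mice and at 2.23 and 5.05 FPKM (1.16) in R6/1 mice, so that it was past the fold in opposite directions. Pomc, the precursor of melanocortins and beta-endorphin, was at 3.04 and 1.92 FPKM (-0.65), the single gene past the fold among 12 opioid and tachykinin genes. Kiss1, a neuropeptide of the hypothalamus, was at 0.618 and 1.03 FPKM (0.69).

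Genes of neighbouring brain regions differed little as groups. Across all genes 0.600% were higher and 1.37% were lower. Of 48 neocortex genes 1 was higher, Nts, and 2 were lower, Bhlhe22 (6.76 and 3.25 FPKM) and Neurod1 (1.48 and 0.957 FPKM), with a median log2 of -0.08. Of 21 hypothalamus and neuropeptide genes measured, Kiss1 was higher, and Prlr, the prolactin receptor that is also on the choroid plexus list, Trh and Pomc were lower. Of 17 thalamus and habenula genes Slc17a6, the vesicular glutamate transporter VGLUT2, was higher (3.76 and 5.89 FPKM) and Zic2 was lower (2.83 and 1.52 FPKM). Of 21 septum and pallidum genes Nts was higher and Zic2 lower. The medians of these last 3 lists were 0.03, 0.08 and 0.04, and the thalamus median was -0.02 over genes with at least 5 FPKM.

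Synaptic genes stayed close to the value of all genes. None of 17 ionotropic and 7 metabotropic glutamate receptor genes passed the fold (Grin1 at 176 and 168 FPKM, Gria2 at 104 and 112 FPKM, Grm5 at 28.0 and 29.5 FPKM). None of 22 genes of GABA receptors and GABA handling passed it, and the median log2 was 0.10. Of these genes 19 had a ratio above 0 and 3 below 0, where 51.2% of all genes lay below 0. Gad1, which makes GABA, was at 168 and 181 FPKM, and Gabbr1, a GABA receptor subunit, at 191 and 189 FPKM. Of these 22 genes 17 had a ratio below 0 in R6/1 mice, where 48.2% of all genes did. None of 27 postsynaptic scaffold and kinase genes passed the fold, where Nrgn, the calmodulin-binding neurogranin, had the lowest ratio at 1044 and 814 FPKM (-0.36) and Camk2a was at 596 and 576 FPKM. Of 36 synaptic vesicle genes Slc17a6 was higher, where 0.600% of all genes were.

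Receptors and channels contributed single genes, where 0.600% of all genes were higher and 1.37% were lower. Htr4, a serotonin receptor, was higher (1.10 and 1.88 FPKM) among 18 serotonin and adrenergic receptor genes, and none of 7 acetylcholine receptor genes passed the fold (Chrm4 at 39.5 and 39.3 FPKM). Of 73 potassium channel genes the 2 lower ones were Kcnj13 and Kcne2 of the choroid plexus. Of 41 sodium and calcium channel genes 2 were higher, among them Cacng5 (4.45 and 6.54 FPKM), and Atp2a3 (1.89 and 1.18 FPKM) was lower. Ngfr, the low-affinity neurotrophin receptor, was higher (1.92 and 3.06 FPKM) among 13 neurotrophic factor and receptor genes. Of 65 axon guidance genes Epha3 (0.678 and 1.04 FPKM) and Nrp2 were higher and Ntn5 (1.06 and 0.554 FPKM), Sema3b (2.05 and 1.19 FPKM) and Efna1 were lower. The list of homeobox, GATA and T-box genes also holds the zinc finger gene Zic2. Of 32 measured genes of this list the 4 lower ones were Otx2, Msx1 (3.68 and 1.77 FPKM), Zic2 and Nkx6-2.

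Housekeeping and stress pathways held hardly any gene past the fold. None passed it among 77 heat shock and chaperone genes (Hspa8 at 101 and 105 FPKM), 26 genes of the unfolded protein response (Calr at 203 and 195 FPKM, Atf4 at 96.9 and 95.2 FPKM), 37 proteasome subunits (Psmb4 at 177 and 171 FPKM), 73 cytosolic ribosomal proteins (Rplp1 at 876 and 819 FPKM), 13 regulators of mitochondrial biogenesis (Tfam at 9.96 and 10.1 FPKM), 34 cholesterol and lipid genes (Scd2 at 407 and 381 FPKM), 26 glutathione genes (Gstm1 at 135 and 128 FPKM), 17 glucocorticoid response genes (Sgk1 at 56.3 and 65.1 FPKM) or 17 circadian clock genes (Dbp at 103 and 102 FPKM). Neither did any of 17 ERK feedback and SOCS genes, 49 clustered protocadherins, 19 huntingtin partners and mismatch repair genes (Htt at 16.3 and 17.0 FPKM) or 15 long noncoding RNAs (Meg3 at 543 and 556 FPKM, Malat1 at 135 and 150 FPKM). Of 22 interferon-stimulated genes Isg15, a ubiquitin-like modifier, was higher (1.46 and 2.56 FPKM), where 0.600% of all genes were, and 21 were within the fold.

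Of the 183 genes lower in wild type mice 57 were also lower by more than the fold in R6/1 mice, where 0.720% of all genes were. These 57 are 31.1% of the wild type and 59.4% of the R6/1 list, and 31 of the 57 were on the choroid plexus list. In the opposite direction, 6 of the 183 were higher in R6/1 mice, where 0.412% of all genes were. Of the 80 genes higher in wild type mice 3 were also higher in R6/1 mice, 3.75% of the wild type and 5.45% of the R6/1 list. These were S100a5, at 0.116 and 0.268 FPKM there, Frzb, a secreted Wnt antagonist (3.91 and 6.37 FPKM in wild type, 2.38 and 3.46 FPKM in R6/1 mice), and Ubap1l (1.16 and 1.81 FPKM, 1.33 and 1.98 FPKM), the last 2 named after their values were seen. In R6/1 mice 72.7% of the 183 lower genes had a ratio below 0, where 48.2% of all genes did, and 35.0% of the 80 higher genes had a ratio above 0, where 51.8% of all genes did. Over all 13337 genes the ratios of the genotypes had a Pearson r of 0.31, which was 0.16 without the choroid plexus list. These are correlations across genes, which share libraries within each group and are no independent replicates.

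**Figure D5:**
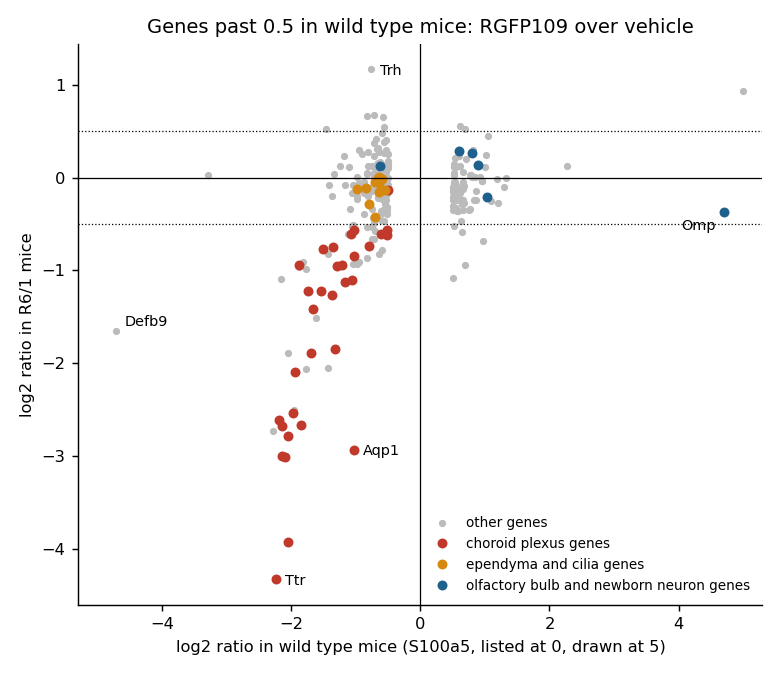
Log2 ratio of RGFP109 over vehicle in wild type (x axis) and R6/1 mice (y axis) for the 263 genes past the fold in wild type mice, with dotted lines at 0.5 and -0.5 on the R6/1 axis. Choroid plexus genes (red) extend from near the dotted line to -4.33 for Ttr in R6/1 mice, ependyma genes (orange) lie nearer to 0 there, and Omp (blue) is at 4.71 in wild type and -0.37 in R6/1 mice.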

How the data were processed

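Striatal RNA of 24 mice in 4 groups was sequenced by the authors with TruSeq libraries in 2 pools of 12, as single reads of 51 bases. The submitters' notes and the study's methods name STAR 2.5.0b, Cufflinks 2.2.1, Cuffdiff and RefSeq transcripts of mm10. The deposited values are FPKM, of which the authors' Cuffdiff tables give 1 per group and gene. Each of the 6 tables was scaled on its own, so that the values of the wild type groups differ from the other tables by a common factor of about 1.04. The tables also hold the authors' log2 fold changes, test statistics, p-values and q-values, none of which was used. Read counts were not used here and the depth per library is unknown, so no interval or detection limit is given, and the pool of each library is not given in the labels.

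Groups came from the labels. Log2 ratios were taken after adding 0.05 FPKM, over genes with at least 1 FPKM in either wild type group, and a gene was counted past an absolute log2 ratio of 0.5, the minimum the study used. No test was run, as the values used give 1 per group. Gene classes came from RefSeq by symbol or synonym, which matched 13743 of the 13771 genes, and small RNA genes were set apart after the values were seen. Coordinates are taken from the tables (mm10) and written 1-based, for genes whose entry spans no neighbour. Promoters are RefSeq windows of GRCm38.p6. The genes, 59 gene lists and rules were chosen with earlier results of these data known. Named were the 12 highest and 12 lowest ratios, the 10 highest and 10 lowest among genes at 10 FPKM or more, both also without small RNA genes, the genes past the fold in each list (the 6 most abundant where there were more, the 4 most abundant where there were none) and drug targets and pathway markers, with choices outside this rule made from the values to describe a list's range or a threshold. A few genes that this rule names are not reported here. The counting was tested on simulated data. Alternatives covered the pseudocount, the filter on low values, the scaling, the minimum fold and the genes left out. Python 3.11.15, numpy 2.4.6, pandas 2.3.3 and matplotlib 3.10.9 were used.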

Additional observations from a re-analysis of the deposited data

How the results depend on the processing

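Each group has 1 value, so no mouse could be left out, no spread or depth is known, and no paired analysis was possible because the tables carry no replicates. Centring on the median and taking both groups through the R6/1-vehicle or the R6/1-RGFP109 tables left all counts within 1.5 times. Counts below are of genes higher, lower and in the same direction past the fold in R6/1 mice. Over all genes these were 253, 328 and 134. They became 107, 181 and 66 with at least 1 FPKM in both groups, 541, 835 and 264 with at least 0.1 FPKM in either, 862, 1214 and 354 with no filter, 604, 916 and 271 at a minimum log2 of 0.25, and 157, 169 and 74 at a minimum of 1. With at least 5 FPKM 169 were lower and 84 shared, and without a pseudocount and genes listed at 0 154 were higher. Leaving out small RNA genes, an alternative chosen after seeing the data, gave 80, 183 and 60.

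From these 80, 183 and 60, with the alternatives likewise applied after seeing the data, the counts became 28, 84 and 32 with a pseudocount of 1 FPKM, 52, 103 and 32 with at least 1 FPKM in both groups, 366, 688 and 189 with at least 0.1 FPKM in either, 26, 34 and 17 with at least 5 FPKM, 686, 1066 and 278 with no filter, 408, 743 and 155 at a minimum of 0.25, and 12, 55 and 27 at a minimum of 1. Without the choroid plexus, ependyma, meninges and neighbouring region lists 28 were shared. The choroid plexus median of -1.34 was -0.84 with a pseudocount of 1 FPKM, -1.03 with at least 1 FPKM in both groups and -0.82 with at least 5 FPKM, and the ependyma median was -0.38 with a pseudocount of 1 FPKM. In 527 of 531 alternatives a list median moved by 0.2 or less on the log2 scale. No named gene past the fold changed sign under the alternatives run. The medians of 6 lists, all between -0.02 and 0.08, changed sign under a filter on low values or a pseudocount of 1 FPKM (neurotrophins, thalamus and habenula, blood cells, interferon-stimulated genes, clustered protocadherins and collagens).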

Other observations

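Some lower genes outside every list are known from motile cilia, and they were picked for this after their values were seen. Drc7, a dynein regulatory complex protein, was at 3.23 FPKM in WT-vehicle and 0.885 FPKM in WT-RGFP109, and Dnali1, Lrrc23 and Cfap52 had log2 ratios of -1.06, -0.99 and -0.92. Drc7 in R6/1 mice had a log2 ratio of -0.91, and Dnali1, Lrrc23 and Cfap52 had ratios of -0.17, -0.20 and -0.13. Likewise chosen from the values, Mfrp and Lbp were lower in both genotypes, at log2 ratios of -1.96 and -1.62 in wild type and of -2.51 and -1.51 in R6/1 mice.

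Some genes differed in direction between the genotypes beyond the fold on both sides. Trh was lower in wild type and higher in R6/1 mice (log2 ratios -0.76 and 1.16), as were Serpinb8 (-0.83 and 0.67) and Alox12b (-0.72 and 0.67). Grem1, a bone morphogenetic protein antagonist, was higher in wild type and lower in R6/1 mice (0.98 and -0.68). These genes were chosen for this contrast, and the difference was not tested.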
